A study of Saccharomyces cerevisiae with 4 samples.

Results

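The kinetochore is the protein assembly that joins centromere DNA to the microtubules of the mitotic spindle, so that each chromosome is pulled to mother and daughter cell. In budding yeast it is built in layers on a short centromere sequence, each layer made of a small complex of fixed subunits. The inner layers (CBF3, Cbf1 and the Ctf19 complex) sit on the centromere, and the outer layers (MIND, Ndc80, Spc105 and Dam1 complexes) reach to the microtubule. The Ipl1 kinase and its partners release faulty attachments, and Stu2 and the kinesin-5 motors act on the microtubules themselves. The genes described here were genes of these complexes outside chromosome XI, named by a list of 34 ORFs. The list does not hold every subunit, and MCM22, DAD3 and DAD4 are among those left out. Of the listed genes 33 were found among the 6210 probes by the ORF that begins the probe name. CTF19 (YPL018W) was not analysed here. A value on all 4 arrays was held by 32 members, and DSN1 had values on 3.

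The study asked how a changed C-terminal domain (CTD) of the largest RNA polymerase II subunit alters gene expression. The 5A mutant carried regular insertions of 5 alanines between CTD diheptads, and the control cells carried the WT CTD. The mutant was made in strain Z26 by plasmid shuffle, in which a LEU2-linked construct takes the place of the URA3-linked WT gene. The control cells are described only as transformed with the WT CTD. Mutant and control were grown to log phase in YPD medium. Both strains shared each of 4 arrays of printed oligonucleotides, 1 replicate of each to an array, with Cy5 on the mutant RNA and Cy3 on the control RNA every time, so that a dye effect of a probe and its expression ratio cannot be told apart. Whether the replicates were separate cultures is not given in the sources used here, so the spread between arrays may be technical. Each value is read as the log2 ratio of the 5A mutant over the control. Base and direction are not written with the values and were inferred from the counts of probes past 2-fold, and 1 or -1 marks the 2-fold rule of the study. A mean ratio was called where limma, fitted over the 6157 probes that at least 2 arrays measured, gave a Benjamini-Hochberg adjusted p under 0.05.

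Across the whole table the array medians lay between -0.01 and -0.00340, and array 2 correlated less with the other arrays (Pearson's r across probes between 0.666 and 0.691) than they did with each other (0.853 to 0.877). The probes of RPO21, which encodes the subunit that carries the CTD, of URA3 and of LEU2 were all lower in the 5A mutant, at -5.67, -4.80 and -1.94 on the log2 scale. Which plasmid markers the control cells carried is not given in the sources used here, and the cause of these ratios was not tested. The ratios come from whole cultures, so a different share of cells at a stage of the cell cycle and a different amount of RNA per cell cannot be told apart. Having 4 arrays limits how precisely any ratio is known.

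Of the 33 measured members, 13 were called, 12 of them lower in the 5A mutant and 1 higher. Among all probes 40.5% were called, and among nuclear probes outside chromosome XI, where all members lie, 38.2%. The share of members called in either direction, 39.4%, was thus close to the background. Called lower were 36.4% of the members, against 20.7% of all probes and 21.7% of nuclear probes outside chromosome XI. Called higher were 3.03%, against 19.8% and 16.6%. Without array 1, 3 or 4 the members called lower numbered 6, 6 and 7, or 18.2%, 18.2% and 21.2%, against 12.2%, 12.9% and 12.8% of all probes. After chromosome medians were set to 0, 7 members were called lower and 3 higher, and the share called lower, 21.2%, was then near the 19.1% of all probes. The median of the 33 mean ratios was -0.13, and that of the nuclear probes outside chromosome XI was -0.04. The members had been listed with earlier results of these arrays known, so no test over the list was made. An unadjusted p under 0.05 was found for 18 of the 33 members, against 50.2% of all probes and 48.2% outside chromosome XI. The mean was below 0 for 21 members, against 50.4% and 52.6%. Each of the 12 members called lower, except STU2, was also below 0 on every array. Both called lower and below 0 on every array were 19.8% of all probes and 20.8% of those outside chromosome XI. The mean passed 2-fold for 2 members, NKP1 and NSL1, both lower. Of all probes 8.66% were 2-fold lower and 5.75% 2-fold higher, and outside chromosome XI 8.96% and 3.58%. The median SD between arrays was 0.23 for the members and 0.30 for all probes tested.

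**Figure D1:**
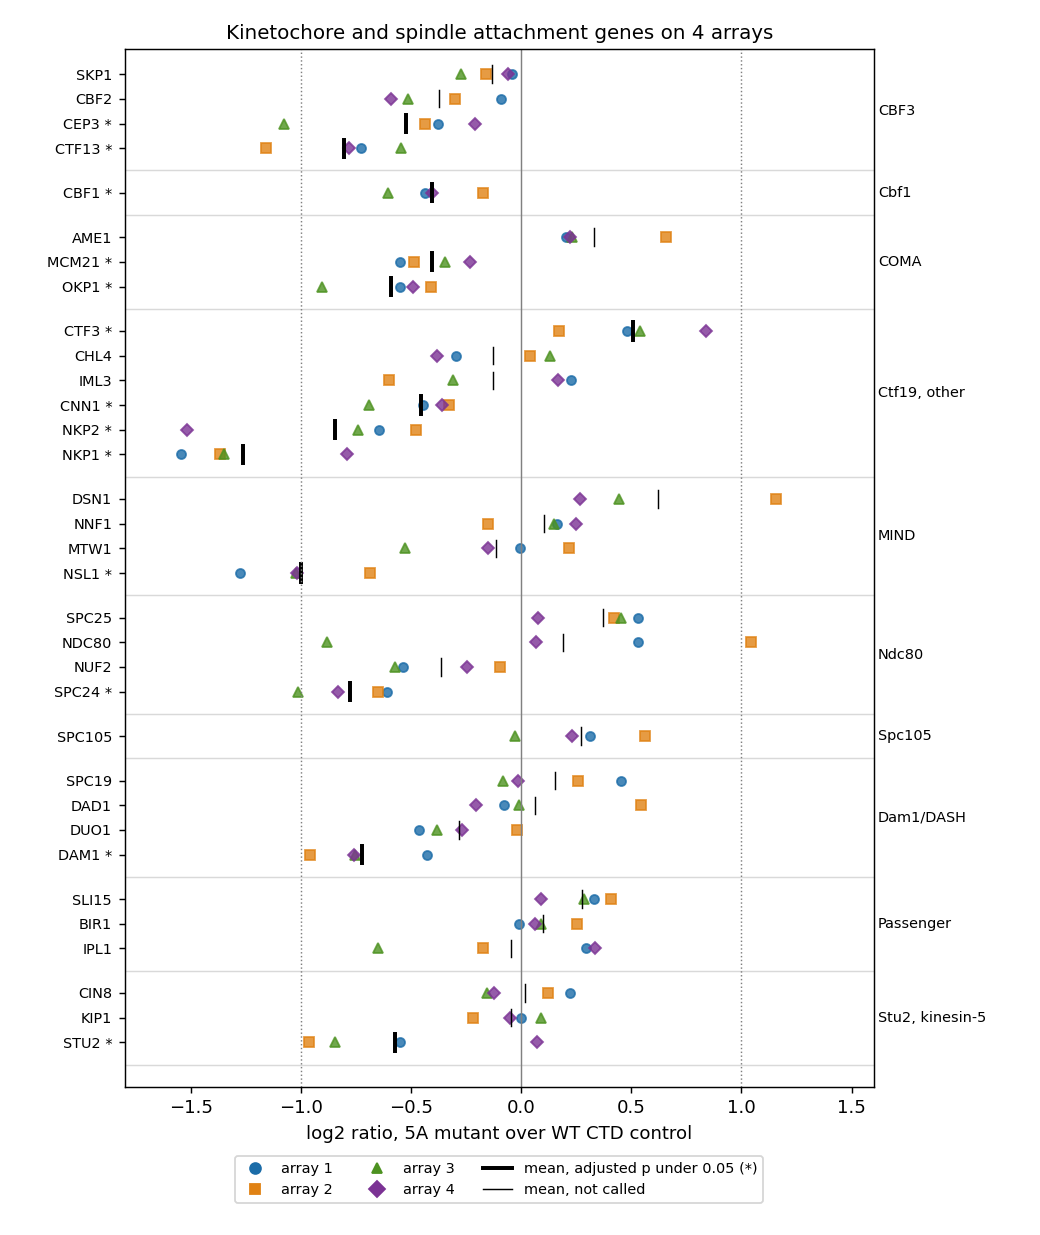
Log2 ratio (5A mutant over WT CTD control, x axis) of each of the 33 measured members on arrays 1 to 4 (symbols), grouped by complex, with the mean as a vertical bar that is thick, and the name starred, where the adjusted p was under 0.05. Dotted lines mark 2-fold. The thick bars lie left of 0 in all complexes that hold one, except for CTF3 at 0.51, and only NKP1 and NSL1 reach the left dotted line.

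Among the 14 listed and measured inner genes (CBF3, Cbf1 and the Ctf19 complex), 8 were called lower and 1 higher. Of these 14 genes, 11 had an unadjusted p under 0.05, and 12 had a mean below 0. Among the 13 listed and measured outer genes (MIND, Ndc80, Spc105 and Dam1), 3 were called lower and none higher. Of these 13 genes, 6 had an unadjusted p under 0.05, and 6 had a mean below 0. Of the 6 passenger and microtubule genes 1 was called, lower, and the same gene was the 1 with an unadjusted p under 0.05. Of nuclear probes outside chromosome XI, 21.7% were called lower and 16.6% higher. An unadjusted p under 0.05 was found for 48.2% of them, and a mean below 0 for 52.6%. Called lower were 57.1% of the inner, 23.1% of the outer and 16.7% of the passenger and microtubule genes. The share of the outer genes was thus close to the background. The greater number of calls among inner genes was not found under every setting. Without array 1, 3 or 4 there were 3 calls among the inner and 3 among the outer genes, all lower. After chromosome medians were set to 0 there were 5 and 5. Of these, 4 inner genes were lower and 1 higher, and 3 outer genes were lower and 2 higher. On the 4 arrays the median ratio of the inner genes lay between -0.53 and -0.37 and that of the outer genes between -0.38 and 0.22, and the inner median was the lower one on each array. The split into inner and outer genes was made after the values were seen and was not tested.

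**Figure D2:**
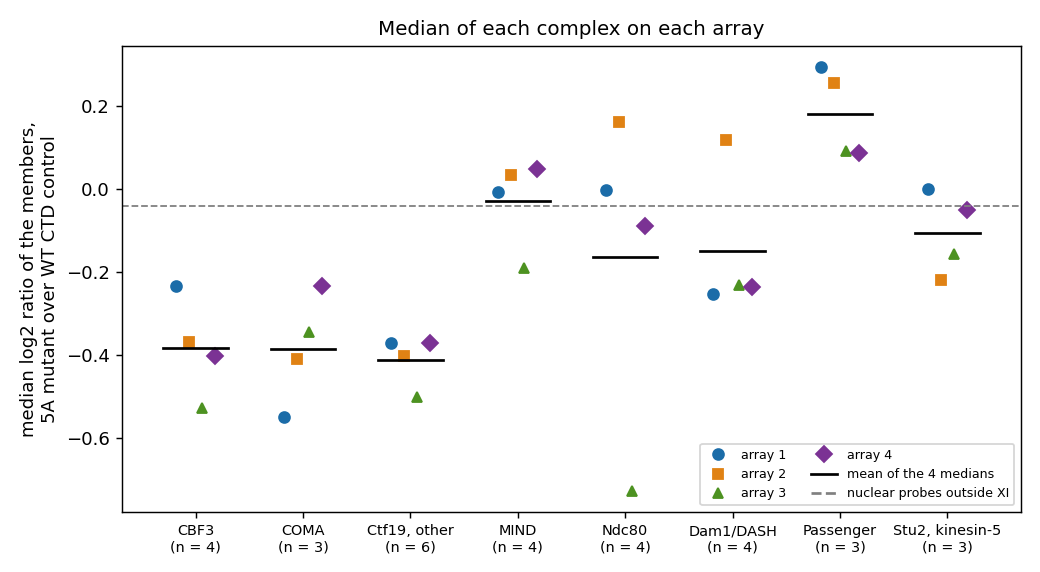
Median log2 ratio (y axis, 5A mutant over WT CTD control) over the members of each complex or group of at least 3 genes (x axis, n members) on arrays 1 to 4 (symbols), with the mean of the 4 medians as a bar and that of nuclear probes outside chromosome XI, -0.04, as a dashed line. CBF3, COMA and the other Ctf19 genes lie below the dashed line on every array, and the passenger genes lie above it on every array.

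CBF3 is the complex that recognises the centromere sequence, and Cbf1 binds a neighbouring element of the same sequence. All 4 CBF3 genes were below 0 on every array, and CTF13 and CEP3 were called. CTF13 (YMR094W), the F-box subunit of CBF3, had log2 ratios of -0.73, -1.16, -0.54 and -0.78 on arrays 1 to 4. Every array gave a lower level in the 5A mutant, and the mean was -0.80 ± 0.26 (SD, n = 4, with an adjusted p of 0.00580 in limma), a ratio of 0.573. CEP3, a DNA-binding subunit, had -0.38, -0.44, -1.08 and -0.21, with array 3 well below the others. Its mean was -0.52 ± 0.38 (SD, n = 4, with an adjusted p of 0.0464 in limma), and the call was lost if array 1, 3 or 4 was dropped (adjusted p in limma between 0.0720 and 0.157) or after chromosome medians were set to 0 (0.0811).

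CBF2, also known as NDC10, encodes the subunit that the other inner proteins need in order to load, and its mean of -0.37 ± 0.23 missed the threshold (SD, n = 4, with an adjusted p of 0.0695 in limma). SKP1, which CBF3 shares with ubiquitin ligases of the SCF type, was closest to 0 in the complex. Its ratio stayed between -0.27 and -0.04, and the 95% interval of its mean ran from -0.43 to 0.16. CBF1 (YJR060W), which is also an activator of sulfur amino acid genes, had ratios of -0.44, -0.17, -0.60 and -0.40. It was lower on all arrays with a mean of -0.40 ± 0.18 (SD, n = 4, with an adjusted p of 0.0468 in limma). This call was lost without array 1, 3 or 4 (adjusted p in limma between 0.150 and 0.166) and after chromosome medians were set to 0 (adjusted p of 0.0612 in limma).

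The COMA complex links the centromeric nucleosome to MIND, and of its subunits Okp1 and Ame1 are essential for growth while Mcm21 and Ctf19 are not. Of its 3 measured genes OKP1 and MCM21 were called lower and AME1 was not called. OKP1 (YGR179C) had ratios of -0.55, -0.41, -0.91 and -0.49, averaging -0.59 ± 0.22 (SD, n = 4, with an adjusted p of 0.0149 in limma). MCM21 (YDR318W), whose protein pairs with Ctf19, had -0.55, -0.49, -0.35 and -0.23, averaging -0.40 ± 0.14 (SD, n = 4, with an adjusted p of 0.0425 in limma). Both were below 0 on every array, and neither was called without array 1, 3 or 4 (adjusted p in limma between 0.0547 and 0.0643 for OKP1, and between 0.0972 and 0.165 for MCM21). MCM21 was also not called after chromosome medians were set to 0 (adjusted p of 0.0526 in limma).

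AME1, whose protein forms a heterodimer with Okp1, was above 0 on every array, at 0.20, 0.66, 0.23 and 0.22. Its mean of 0.33 ± 0.22 was not called (SD, n = 4, with an adjusted p of 0.0997 in limma). The partners therefore lay on opposite sides of 0 on all 4 arrays, with AME1 higher than OKP1 by 0.92 ± 0.22 on the log2 scale (SD, n = 4). On array 1 the deposited ratios of OKP1 and MCM21 were identical to the last digit. Such exact repeats on 1 array made up 20.4% of all values and 30.5% of the 131 member values, and their cause was not tested.

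The other Ctf19 genes encode proteins that, like Mcm21, cells can grow without but that help to keep chromosomes through division. NKP1 and NKP2, whose proteins form a pair, were both called lower. NKP1 (YDR383C) had ratios of -1.55, -1.37, -1.35 and -0.79, lower on all arrays and past 2-fold on 3 of them. Its mean of -1.26 ± 0.33 (SD, n = 4, with an adjusted p of 0.00168 in limma) was the lowest of the 33, at percentile 5.03 of all tested probes. NKP2 (YLR315W) had -0.64, -0.48, -0.74 and -1.52, again lower on all arrays, with array 4 far below the others. Its mean was -0.85 ± 0.46 (SD, n = 4, with an adjusted p of 0.0130 in limma), and it stayed called whichever array was left out, with means between -0.97 and -0.62. NKP2 overlaps TAD3 in the RefSeq gene table of assembly R64, and the mean of TAD3 was -0.09 (adjusted p of 0.657 in limma).

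CNN1 encodes the yeast counterpart of CENP-T, which can bring Ndc80 to the kinetochore by a second route. Its ratios of -0.45, -0.33, -0.69 and -0.36 gave a mean of -0.46 ± 0.17 (SD, n = 4, with an adjusted p of 0.0300 in limma). It lost the call without array 1, 3 or 4 (adjusted p in limma between 0.0924 and 0.121) and, on its chromosome VI, after the median of that chromosome, -0.17, was set to 0 (adjusted p of 0.119 in limma). The pair CHL4 and IML3, which guide cohesin to the region around the centromere, crossed 0 between arrays. Both means were -0.13, with 95% intervals from -0.47 to 0.21 and from -0.54 to 0.29.

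CTF3 was the member called higher. Its ratios of 0.48, 0.17, 0.54 and 0.84 were above 0 on every array, and the mean was 0.51 ± 0.27 (SD, n = 4, with an adjusted p of 0.0325 in limma). The call was lost without array 1, 3 or 4 (adjusted p in limma between 0.102 and 0.153). Ctf3 works in a trimer with Mcm16 and Mcm22. MCM16, no member either, had 1 value, 0.97 on array 1, and was not tested. MCM22 is no member and was picked for mention after its values were seen, and its ratios were -0.37, -0.73, -0.40 and -0.70. Its mean of -0.55 ± 0.19 was called lower (SD, n = 4, with an adjusted p of 0.0173 in limma), and not without array 4 (adjusted p of 0.0900 in limma). CTF3 exceeded MCM22 on all 4 arrays, by 1.06 ± 0.32 (SD, n = 4).

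The MIND complex bridges the inner and outer kinetochore and is made of the pairs Mtw1 with Nnf1 and Dsn1 with Nsl1. Of its 4 genes 1 was called, lower, and the means of the others lay on both sides of 0. NSL1 (YPL233W) was the gene called, with ratios of -1.28, -0.69, -1.02 and -1.02, all below 0. Its mean of -1.001 ± 0.24 (SD, n = 4, with an adjusted p of 0.00251 in limma) stood at the 2-fold line. Without array 1, 3 or 4 it fell short of 2-fold and stayed called. DSN1 (YIR010W), whose protein is phosphorylated by Ipl1, had no value on array 1 and was at 1.16, 0.45 and 0.27 on arrays 2 to 4. Its mean of 0.62 ± 0.47 was not called (SD, n = 3, with an adjusted p of 0.0620 in limma), and after chromosome medians were set to 0 it was (0.72, adjusted p of 0.0356 in limma). On the 3 shared arrays DSN1 exceeded NSL1 by 1.84, 1.47 and 1.29. MTW1 and NNF1 were near 0, at -0.12 ± 0.31 and 0.10 ± 0.17 (SD, n = 4), and both had values on either side of 0.

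The Ndc80 complex is a rod whose Ndc80 and Nuf2 end binds the microtubule and whose Spc24 and Spc25 end docks on MIND. SPC24 (YMR117C) was called, with ratios of -0.61, -0.65, -1.01 and -0.83, averaging -0.78 ± 0.18 (SD, n = 4, with an adjusted p of 0.00475 in limma). SPC25 (YER018C) was above 0 on every array, at 0.53, 0.42, 0.45 and 0.07, and its mean of 0.37 ± 0.20 was not called (SD, n = 4, with an adjusted p of 0.0663 in limma). With chromosome medians set to 0 SPC25 reached 0.43 and was called (adjusted p of 0.0445 in limma). The values of these partners did not overlap, and the difference was 1.15 ± 0.23 (SD, n = 4).

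NUF2 was below 0 on every array, between -0.57 and -0.10, with a mean of -0.36 ± 0.23 (SD, n = 4, with an adjusted p of 0.0776 in limma). It was called without array 2 (adjusted p of 0.0293 in limma). NDC80 (YIL144W) itself had the widest range of all members, with ratios of 0.53, 1.05, -0.88 and 0.07. Array 2 placed it 2-fold higher and array 3 nearly 2-fold lower, and its mean was 0.19 ± 0.82 (SD, n = 4). The 95% interval of that mean in limma ran from -0.50 to 0.88, narrower than this SD alone would give. SPC105, the platform for spindle checkpoint proteins, was above 0 on 3 arrays, with a mean of 0.27 ± 0.24 (SD, n = 4, with an adjusted p of 0.170 in limma).

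**Figure D3:**
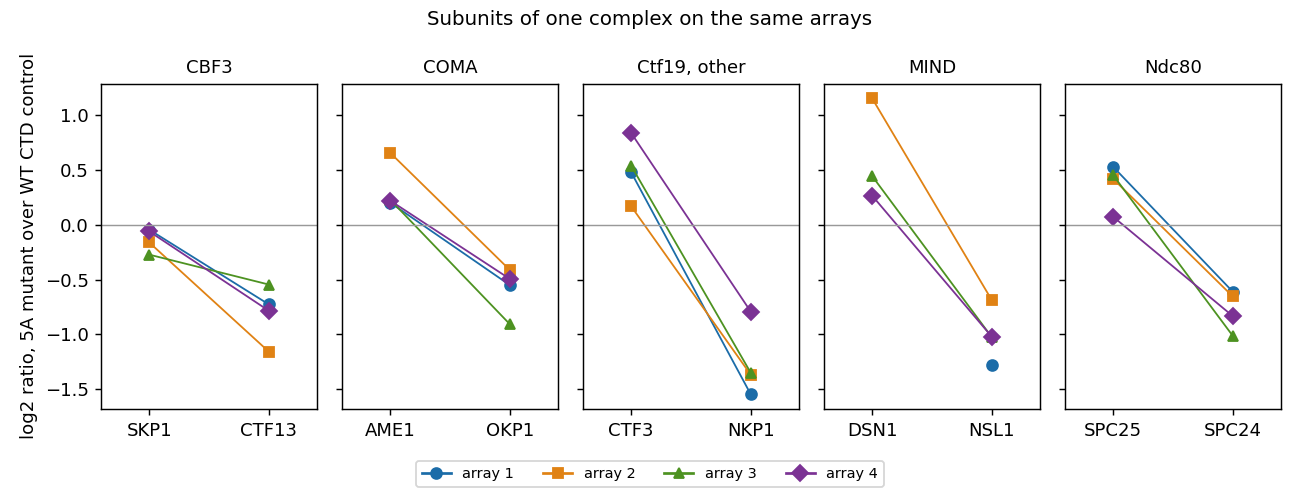
Log2 ratio (y axis, 5A mutant over WT CTD control) of the gene with the highest and the gene with the lowest mean of 5 complexes (panels), with a line joining the values of 1 array. On every array with both values the left gene lies above the right one, for example by 0.91 to 1.47 for SPC25 and SPC24. DSN1 has no value on array 1.

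In these complexes the gene with the highest mean stayed above the gene with the lowest on every array that measured both. The same held for SPC19 over DAM1 among the Dam1 complex members, by 0.88 ± 0.24 (SD, n = 4). It did not hold for the passenger genes, where SLI15 was above IPL1 on 3 arrays and not on array 4, where the difference was -0.25, nor for CIN8 over STU2, which was turned on array 4 as well (-0.20). The pairs were picked by their values, so the differences are descriptions, and an exact sign-flip test over 4 arrays could not go below a two-sided p of 0.125. Besides those above, CTF3 exceeded NKP1 by 1.77 ± 0.23 and SKP1 exceeded CTF13 by 0.67 ± 0.30 on the log2 scale (SD, n = 4).

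The Dam1 (DASH) complex forms a ring around the microtubule that holds the kinetochore on its shortening end. DAM1 (YGR113W), the subunit that Ipl1 phosphorylates to weaken attachments, was called, with ratios of -0.43, -0.96, -0.75 and -0.76. It was lower on every array, and the mean was -0.72 ± 0.22 (SD, n = 4, with an adjusted p of 0.00711 in limma). DUO1 was below 0 on every array as well, between -0.46 and -0.02, but its mean of -0.28 ± 0.19 was not called (SD, n = 4, with an adjusted p of 0.132 in limma). It was called without array 2 (adjusted p of 0.0434 in limma). DAD1 and SPC19 had values on both sides of 0, with means of 0.06 ± 0.33 and 0.15 ± 0.25 (SD, n = 4).

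The Dam1 complex genes DAD2, ASK1 and SPC34 lie on chromosome XI and were called higher, as most probes of that chromosome were (74.8%, median mean ratio 0.89). DAD2 had ratios of 1.19, 1.01, 0.90 and 0.91, all above those of any Dam1 complex member, and a mean at 1.00 ± 0.14 (SD, n = 4, with an adjusted p of 0.00169 in limma). The other two, picked for mention after their values were seen, were at means of 0.77 ± 0.21 and 0.96 ± 0.21 (SD, n = 4). Transcripts for the measured subunits of the same ring thus ranged from DAM1 to DAD2 over 1.73 ± 0.16 on the log2 scale (SD, n = 4), with DAD2 above DAM1 on all 4 arrays. For the subunit genes DAD3, DAD4 and HSK3 no probe was found. Relative to the median of chromosome XI, DAD2 was at 0.12 and was not called (adjusted p of 0.493 in limma).

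The chromosomal passenger proteins detect attachments that lack tension. None of the 3 genes was called by limma, either at the adjusted threshold or at an unadjusted p under 0.05. IPL1 (YPL209C), the Aurora kinase, had ratios of 0.29, -0.17, -0.65 and 0.33, with a 95% interval of the mean from -0.50 to 0.40. Arrays 1 and 4 placed it above 0 and arrays 2 and 3 below. SLI15, the INCENP counterpart that activates Ipl1, was above 0 on all arrays, with a mean of 0.28 ± 0.14 (SD, n = 4, with an adjusted p of 0.121 in limma). BIR1, the survivin counterpart, had a mean of 0.10 ± 0.11 and a 95% interval from -0.19 to 0.39 (n = 4).

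STU2 encodes a microtubule polymerase that also acts at kinetochores. Its ratios were -0.55, -0.96, -0.85 and 0.07, lower on 3 arrays and near 0 on array 4. The mean of -0.57 ± 0.46 passed the threshold narrowly (SD, n = 4, with an adjusted p of 0.0498 in limma). It was lost without array 1, 2 or 3 (adjusted p in limma between 0.0984 and 0.170) and under 6 other settings. The kinesin-5 genes CIN8 and KIP1, whose motors push the spindle poles apart, had means of 0.02 ± 0.19 and -0.04 ± 0.13 (SD, n = 4). Their 95% intervals ran from -0.30 to 0.33 and from -0.34 to 0.25.

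For the 20 members that were not called, the width of the interval shows what the arrays could have missed. The intervals come from limma, which draws the spread of each probe toward a spread shared by all probes. For a member with widely spread values, such as NDC80, the interval is narrower than its own SD would give. The 95% interval of the mean in limma lay within 2-fold in both directions for 19 of them, and the exception was DSN1, whose interval ran from 0.10 to 1.15. An interval within 2-fold was found for 3305 of the 3662 uncalled probes of the whole table. Among nuclear probes outside chromosome XI it was found for 3256 of 3590. The intervals are not adjusted for the number of probes, and those of DSN1, NUF2, SPC25, AME1 and CBF2 left out 0. Of the 13 called members, 6 stayed called under all 12 other settings run, each array left out in turn included. These were CTF13, NKP1, NKP2, NSL1, SPC24 and DAM1.

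The probes next to the called members on the chromosome were examined because chromosome XI as a whole was shifted, as given above. The 12 members called lower had 24 adjacent probes in the RefSeq gene order, of which 6 (25%, against 21.7% of nuclear probes outside chromosome XI) were called lower, 4 were called higher and 14 had a mean below 0. Of nuclear probes outside chromosome XI, 16.6% were called higher and 52.6% had a mean below 0. The median mean ratio of the 24 adjacent probes was -0.11. NSL1 lies between VMA11, at 0.55, and SSO1, at 0.18, neither of them below 0. NKP1 lies between RPP2B, at 0.68, and ATO3, at -1.22, so 1 of its neighbours was near the level of NKP1 itself. OKP1 lies between PBP1, at -0.45, and RNR4, at -0.66, both called lower. CNN1 lies between MRX20, at 0.51, and BNA6, at -1.28, which was lower than CNN1. The other neighbours called lower were SHY1 beside DAM1, at -0.61, and HIM1 beside MCM21, at -0.57. The 12 chromosomes that hold members had median mean ratios between -0.17 and 0.02.

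**Figure D4:**
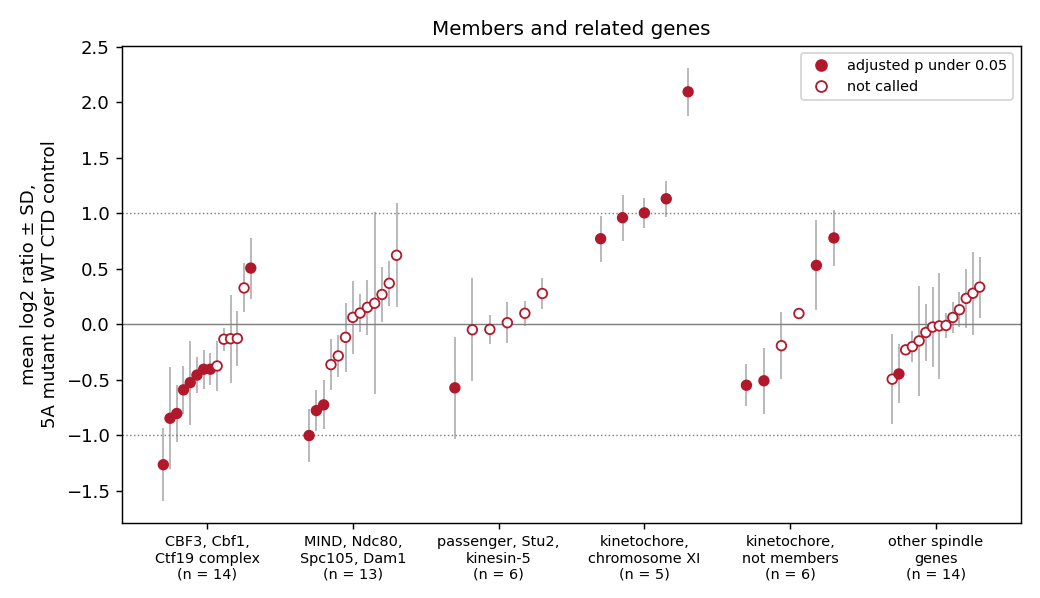
Mean log2 ratio ± SD over arrays (y axis, 5A mutant over WT CTD control) of the members in 3 groups and of 3 lists of related genes (x axis, n genes), filled where the adjusted p was under 0.05. SCM3, at -4.02, lies outside the plot and was left out. The genes of chromosome XI lie between 0.77 and 2.10, above every member, and the other spindle genes lie between -0.49 and 0.34.

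Related genes outside the list were set beside the members. The 5 measured kinetochore genes of chromosome XI were all called higher, as were 74.8% of all probes of that chromosome. Those past 2-fold were MIF2 at 2.10 ± 0.22, CSE4 at 1.13 ± 0.16 and DAD2 (SD, n = 4). With the median of that chromosome set to 0, MIF2 was at 1.21 and stayed called (adjusted p of 0.00140 in limma), and CSE4 was at 0.25 and did not (adjusted p of 0.184 in limma). MIF2 and CSE4 encode the centromeric proteins on which the Ctf19 complex and MIND assemble. Of 7 further kinetochore genes with values on at least 2 arrays, 2 were called higher and 3 lower. These are 28.6% and 42.9%, against 16.6% and 21.7% of nuclear probes outside chromosome XI. Without SCM3 the share called in either direction was 66.7%, against 38.2%. The list is small, was chosen with earlier results known, and was not tested. Its lowest gene was SCM3, the chaperone of Cse4, at -4.02 ± 0.61 (SD, n = 4, with an adjusted p of 0.000114 in limma). SCM3 is the chromosomal neighbour of RPO21. The others were chosen for mention after their values were seen. Besides MCM22, they were GLC7, SGO1 and SLK19. GLC7, a phosphatase that opposes Ipl1, was at a mean of -0.51 ± 0.30 (SD, n = 4, with an adjusted p of 0.0364 in limma). SGO1, the guardian of centromeric cohesin, was at 0.78 ± 0.25 (SD, n = 4, with an adjusted p of 0.00632 in limma). SLK19, at 0.53 ± 0.41, was called narrowly and was below 0 on array 3 (SD, n = 4, with an adjusted p of 0.0493 in limma). Of 14 genes for tubulins, spindle motors and microtubule-binding proteins 1 was called, the motor gene KIP2, also chosen after its values were seen, at -0.45 (adjusted p of 0.0478 in limma), and 2 had an unadjusted p under 0.05. The median of their mean ratios was -0.02. Their share of calls, 7.14%, was below the 38.2% of nuclear probes outside chromosome XI, where all 14 lie.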

How the data were processed

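The authors read the arrays with a GenePix scanner, used the BASE server for normalization, and deposited log2 ratios by probe and array, with 5955 of 6210 probes measured on all 4 arrays. The normalization method and background correction are not given in the sources used here, and spot intensities were not analysed here. Base and direction are not written with the deposited log2 values. The ratio was taken to be 5A over WT in base 2, since 325 probes with 4 values had a mean of at least 1 and 493 a mean of at most -1, the split of up- and down-regulated genes that the paper gives.

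An intercept model in limma 3.58.1 (R 4.3.3), moderated by eBayes, was applied to 6157 probes with p-values adjusted by Benjamini-Hochberg. The same fit was run on simulated data with independent noise and far fewer changed probes than were called here. That run does not show how many of the calls here are right. Tables and figures used Python 3.11.15, pandas 2.3.3, numpy 2.4.6 and matplotlib 3.10.9. Symbols came from the RefSeq gene table of assembly R64, which matched 5724 probes. No sequences were used, so promoter motifs were not examined. Members, complexes and related lists were chosen with earlier results of these data known. All members could be named; related genes were named if called and past 2-fold, and exceptions are marked. Alternatives were array centring, a common array spread, other limits on missing values, robust eBayes, array weights, chromosome centring, leaving out chromosome XI, other averages, and leaving out each array.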

Additional observations from a re-analysis of the deposited data

Results flagged for a closer look

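Of 67 sets of 4 array values examined (members, related genes and medians of complexes), 5 had 1 array far from the other 3, and chance gives about 1 in 20. Array 2 was the distant one in all 5. AME1 was at 0.66 on array 2 against 0.20 to 0.23 on the others, and SPC34 was at 1.27 against 0.82 to 0.88. SCM3 was at -3.11 against -4.35 to -4.27, and TUB4, the gamma-tubulin gene, was at -0.88 against 0.01 to 0.17. The median of the 4 Dam1 complex members was 0.12 on array 2 and between -0.25 and -0.23 on the others. Among the 32 members with 4 values, array 2 gave the highest ratio for 14 and the lowest for 7, and array 3 the highest for 3 and the lowest for 13. In limma's array weighting array 2 had the lowest weight, 0.360. What set it apart was not tested.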

How the results depend on the processing

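The count of 13 called members was between 10 and 15 under the settings that kept all arrays and between 6 and 14 with 1 array left out. Calls fell over the whole table as well, from 2495 to 1438, 1501 and 1492 probes without array 1, 3 or 4. The count of members called lower was between 6 and 13, and that of members called higher between 0 and 1, with 1 array left out. With chromosome medians set to 0 7 members were called lower and 3 higher. Members past 2-fold numbered 1 in place of 2 after the arrays were centred, brought to a common spread or centred by chromosome, and between 1 and 2 with 1 array left out. For each complex the median of its genes was taken on each array, and these medians were averaged over the arrays. This average for the MIND genes, -0.03, was 0.083 with chromosome centring, -0.21 with values on all 4 arrays and -0.16 with means over members in place of medians. Without array 3 the averages of the MIND and Ndc80 genes turned from -0.03 and -0.16 to 0.025 and 0.023. The average of COMA was -0.22 with means over members, against -0.38. That of the other Ctf19 genes was -0.32 with chromosome centring, against -0.41. Of the members not called, NUF2 and DUO1 were called with array weights and without array 2, and CBF2 with array weights. No called member changed sign. Among the uncalled, MTW1 was at 0.038 with chromosome centring, and DAD1, IML3, IPL1 and CIN8 at -0.072, 0.028, 0.083 and -0.014 with array weights. With 1 array left out, means spanned 0 for MTW1 (-0.23 to 0.020), NDC80 (-0.095 to 0.55), DAD1 (-0.098 to 0.15), IML3 (-0.25 to 0.029), IPL1 (-0.18 to 0.15), CIN8 (-0.054 to 0.072) and KIP1 (-0.090 to 0.014). The causes were not tested. Both strains share each array, so each ratio already pairs them, and the fit to the ratios is a paired comparison.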
